A study of Mus musculus with 21 samples.

Results

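The genes described here are 36 genes of folding, quality control and entry of proteins in the endoplasmic reticulum (ER), together with regulators of the unfolded protein response. They were taken as a list of symbols and matched by name. All 36 were found, out of 47643 genes in the count table. In the ER lumen, chaperones and disulfide isomerases fold newly made secretory and membrane proteins, lectin chaperones hold those that carry N-glycans, and molecules that fail to fold are passed back to the cytosol for degradation. When unfolded proteins accumulate, the membrane sensors IRE1, ATF6 and PERK raise chaperone transcription and slow translation. T cells that meet antigen enlarge this machinery as they grow and begin to make cytokines, and plasma cells are the lymphocytes best known for relying on XBP1.

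RNA was measured by 3′ mRNA sequencing in CD4+ T cells flow sorted from spleens of Tg4 Tiger Nr4a3-Tocky mice. In these mice the T cells bear a transgenic receptor (Tg4) for a myelin basic protein (MBP) peptide, Tiger marks Il10 expression with GFP, and Nr4a3-Tocky reports receptor signalling with a Timer protein that matures from blue to red fluorescence. All 7 groups shared these alleles, with 3 mice each. The control group was unimmunised, and the others received 0.8 µg or 80 µg of the 4Y MBP peptide under the skin without adjuvant, 4, 12 or 24 h before the cells were taken. The study's methods give a different gate for each time, which took Blue+Red− cells 4 h after peptide, cells positive for both colours after 12 h and Blue−Red+ cells after 24 h, so time and sorting gate cannot be told apart, and mice of both sexes were used. The gate of the control cells is not given there.

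Totals per library ranged from 2352800 to 6244279 counts. The most counted gene held 17% to 27.8% of the counts of a library. With 80 µg that share was 19.7% to 20.7% at 4 h and 26.1% to 27.8% at 24 h. It enters every value scaled to the library total, and its part in those values was not tested. The CD4 T cell genes Cd3e, Cd3d, Cd3g, Cd4, Trac and Lck were counted in every library. Their sum was 2390 to 2510 CPM, a unit of counts scaled to the library total, in the control, 1170 to 1630 at 4 h, 1000 to 1250 at 12 h and 1760 to 2250 at 24 h, and the part of this in the differences of the members from control was not tested. Of 6 plasma cell markers, Ighg1 was at 0 in all 21 libraries, Tnfrsf17 had at most 1 count and Mzb1 at most 13, and the 6 together summed to between 0.287 and 7.69 CPM, with the highest sum in a control library. The 6 B cell markers summed to between 2.03 and 80.6 CPM, again highest in the control group, and the part of these cells in the differences from control was not tested. At 24 h they summed to 27 to 36.3 CPM with 0.8 µg and 7.53 to 16 with 80 µg. The 2 CD8 T cell markers summed to 43.6 to 51.3 CPM with 0.8 µg at 12 h and 13.1 to 22.7 with 80 µg. The part of B and CD8 T cells in the differences between doses was not tested. In bulk RNA of this kind, a change in the number of cells of a type and a change in RNA per cell cannot be told apart. Counts were taken at the 3′ end of transcripts, so they do not separate the spliced from the unspliced form of Xbp1 mRNA. Levels are compared here between groups within a gene and not between genes. The exceptions are sums over several genes and the share of Hspa5 in the sum of the members.

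Promoter sequences show an element that some members share. ATF6 and XBP1 act on chaperone genes through the ER stress response element (ERSE), written CCAAT, any 9 bases, CCACG. Of the 36 members, 29 had a promoter in the RefSeq table for GRCm38.p6, which holds 250 bases before the start and 50 from the start on. Searched on both strands, ERSE was found in 9 of the 29 (31%), against 37 of 27025 genes in the table (0.137%) and 0 of 53 related ER genes that were not on the list. The list was chosen to hold chaperone genes, on which ATF6 and XBP1 act through ERSE. These shares therefore describe the list and test nothing. ERSE-II, written ATTGG, any base, CCACG, was found in 2 members (Dnajb11 and Herpud1), in 0.0444% of genes and in 1 of the 53 related genes (Krtcap2). The UPR element was searched only as TGACGTGG, and other forms of it were not searched. That form was found in 0 of the 29 members, in 0.714% of genes and in 4 of the 53 related genes (Txndc11, Txndc5, Ube2j1 and Vcp). The windows below hold the element of 5 members that were higher after immunisation, then of Dnajc3, Syvn1 and Herpud1, which were not higher at 4 h or 12 h. The element is in capitals, on the gene strand or as its reverse complement, and each sequence reads 5′ to 3′ on the strand of its gene.
Hspa5: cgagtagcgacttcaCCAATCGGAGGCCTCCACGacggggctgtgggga
Canx: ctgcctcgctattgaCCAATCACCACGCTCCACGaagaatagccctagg
Pdia6: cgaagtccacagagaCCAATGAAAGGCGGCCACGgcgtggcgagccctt
Calr: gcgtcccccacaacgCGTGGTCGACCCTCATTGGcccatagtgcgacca
Creld2: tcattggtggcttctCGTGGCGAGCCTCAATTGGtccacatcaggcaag
Dnajc3: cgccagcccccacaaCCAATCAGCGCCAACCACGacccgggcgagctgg
Syvn1: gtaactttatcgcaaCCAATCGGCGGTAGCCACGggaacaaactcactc
Herpud1: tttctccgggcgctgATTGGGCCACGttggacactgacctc
On GRCm38.p6 these windows lie at chr2:34772010-34772058 (plus strand), chr11:50325785-50325833 (minus), chr12:17266476-17266524 (plus), chr8:84847060-84847108 (minus), chr15:88819505-88819553 (plus), chr14:118937812-118937860 (plus), chr19:6046517-6046565 (plus) and chr8:94386362-94386402 (plus). The element of Calr and of Creld2 was on the opposite strand. The other ERSE matches were in Derl3 and in Hsp90b1, which held 2.

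**Figure D1:**
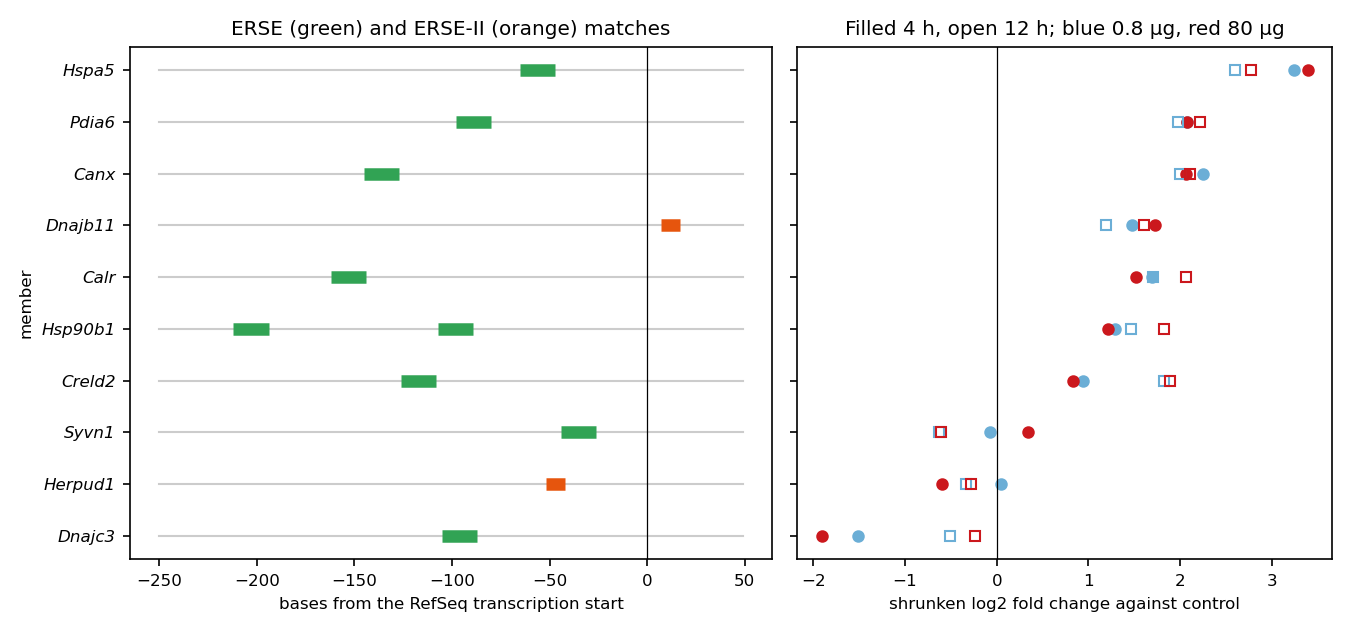
Left, position of ERSE (green) and ERSE-II (orange) matches in bases from the RefSeq start, for the 10 members with a match that were tested. Right, their shrunken log2 fold changes against control at 4 h (filled) and 12 h (open) with 0.8 µg (blue) and 80 µg (red): Hspa5 lies at 3.24 and 3.39 at 4 h, and Dnajc3 at -1.51 and -1.91.

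To ask how antigen moved these genes, the first comparisons set each of the 6 immunised groups against the unimmunised one. Of the 13 ER chaperones, lectins and disulfide isomerases, those that rose numbered from 6 with 0.8 µg at 24 h (46.2%, all genes 11.5%) to 11 with 80 µg at 12 h (84.6%, all genes 17.8%). At 4 h they numbered 9 after 0.8 µg (all genes 17.3%) and 10 after 80 µg (all genes 18.4%), and 1 of the 13 fell in each comparison. These 13 join role groups that are given apart below. The members were chosen with earlier results of these data known, so these shares are a description and not a test. Of the 6 tested genes of ER-associated degradation 0 were called higher, a list too short to set that count against the shares of all genes. Hspa5, Sdf2l1, Calr, Canx and Pdia6 were higher in all 6 comparisons (all genes 3.42%), and 22 members were higher in at least 1 (all genes 32.7%). Dnajc3, Edem1, Dnajb9 and Ern1 were lower in at least 1 (all genes 38.7%), and 10 of the 35 members that could be tested were called in none (all genes 33%). These shares of all genes are over the 12628 tested in all 6 comparisons. Here a gene is called when its Benjamini-Hochberg adjusted p in DESeq2 was under 0.05 and its shrunken log2 fold change passed 1 in either direction. Counts at an unadjusted p, given below for some lists, have no share of all genes to set them against. These 6 comparisons share the 3 control libraries, so they are not independent of each other. Scaling by library totals instead of DESeq2 size factors moved the median of all genes by -0.16 log2 units at 4 h with either dose, and by -0.14 and -0.24 at 24 h with 0.8 and 80 µg, and no called value of a member changed its direction under it.

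With 0.8 µg at 4 h, 12 of the 36 members were called higher and 2 lower, where 17.3% of all genes tested were higher and 23.4% lower. With 80 µg at 4 h, 18 were higher and 2 lower, against 18.4% and 25.1% of all genes, and library totals as size factors gave 16 calls in place of 20. At 12 h the counts were 15 higher and 1 lower with 0.8 µg (all genes 17.2% and 20.5%), and 18 higher and 1 lower with 80 µg (all genes 17.8% and 20.1%). At 24 h they were 6 higher and 2 lower with 0.8 µg (all genes 11.5% and 5.84%), and 11 higher and 2 lower with 80 µg (all genes 12.3% and 7.91%). With library totals as size factors this last comparison gave 8 calls in place of 13. The share of members called higher was above that of all genes in each comparison as fitted. The median shrunken log2 fold change of the 35 tested members was 0.78, 0.83 and 0.50 at 4, 12 and 24 h with 0.8 µg, and 1.02, 1.18 and 0.64 with 80 µg, while that of all genes lay between -0.15 and 0. Summed over the members, normalised counts were 7988 ± 98.5 (SD, n = 3) in the control, 21876 ± 238 and 22201 ± 546 at 4 h with 0.8 and 80 µg, 19362 ± 1432 and 23056 ± 1526 at 12 h, and 13589 ± 1831 and 14975 ± 1004 at 24 h. Hspa5 alone made up 8.86% to 11% of this sum in the control libraries, 34.9% to 39.6% at 4 h, 23.7% to 26.1% at 12 h and 10.3% to 16.6% at 24 h.

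**Figure D2:**
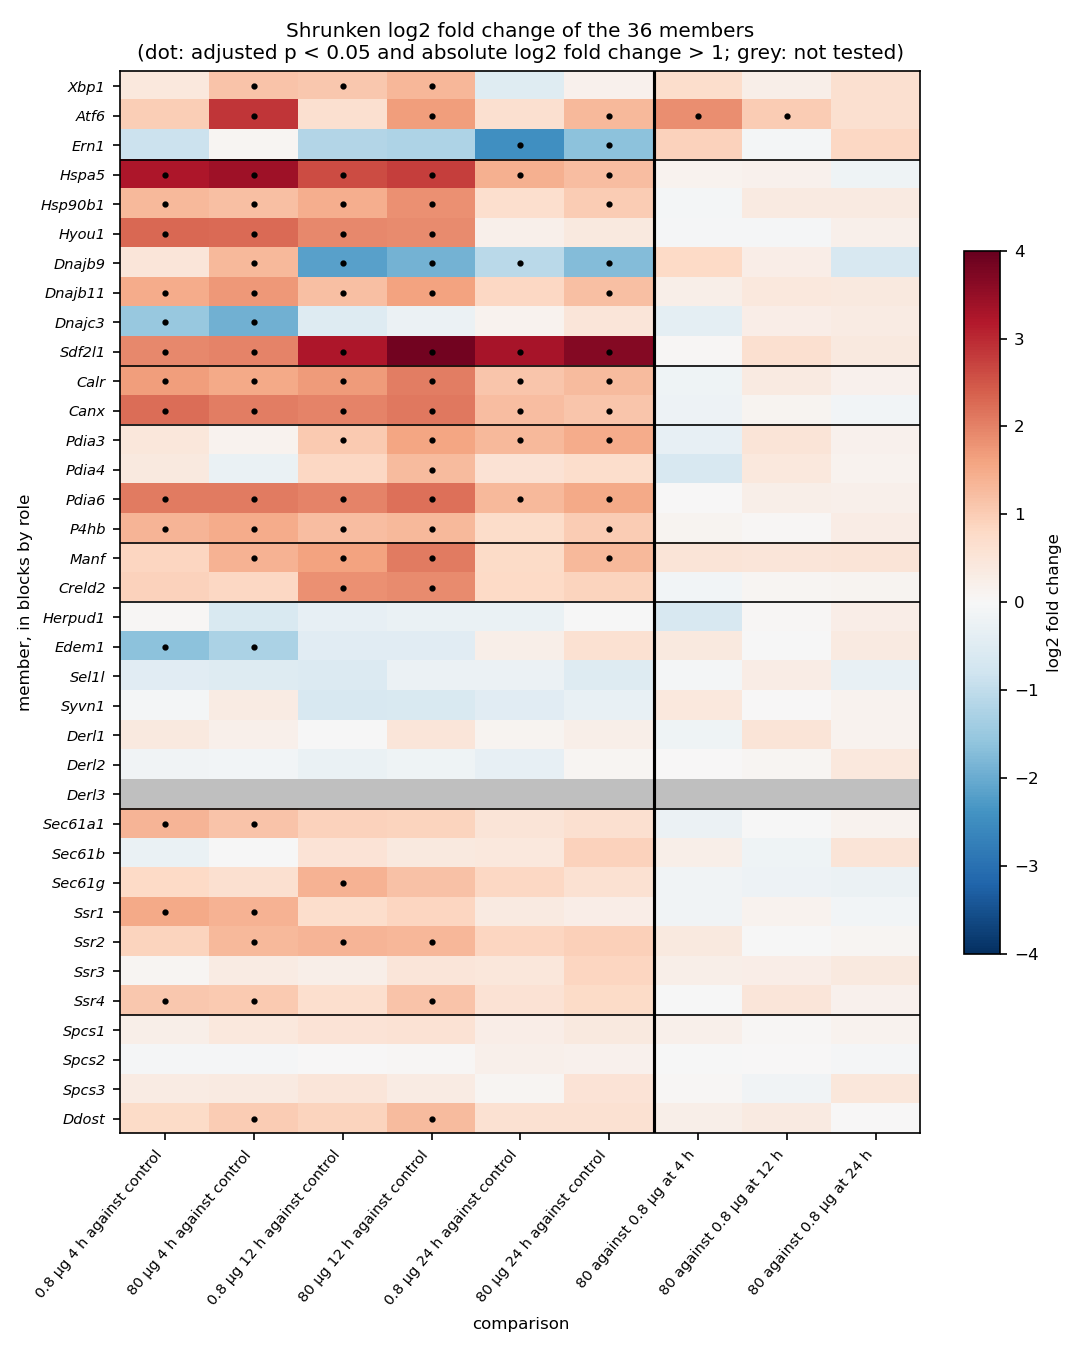
Shrunken log2 fold change of the 36 members (rows, in blocks by role) in the 6 comparisons with control and the 3 between doses (columns), with a dot for each called value. Red runs through most of the chaperone, lectin and isomerase blocks, with Dnajb9 and Dnajc3 blue in part. Degradation genes stay pale apart from Edem1, which is blue at 4 h, and Derl3, which is grey because it was not tested, and between doses only Atf6 has dots.

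Among the regulators, Atf6 and Xbp1 rose and Ern1 did not. Atf6 (ENSMUSG00000026663, chr1:170704674-170867771, minus strand) encodes a membrane-bound transcription factor that is cut free in the Golgi and drives chaperone genes. Its normalised counts were 40.2, 29.4 and 41.4 in the control libraries, 79.7, 86.9 and 56.1 with 0.8 µg at 4 h and 307, 269 and 242 with 80 µg at 4 h. At 12 h they were 70.6, 67.7 and 34 with 0.8 µg and 131, 129 and 100.1 with 80 µg, and at 24 h 55.5, 65.3 and 53.7 with 0.8 µg and 84.4, 92 and 96.1 with 80 µg. All 9 libraries of the 80 µg groups lay above every control library and above every 0.8 µg library of the same time. Against control, Atf6 rose by 2.85 on the log2 scale with 80 µg at 4 h (SE 0.24, adjusted p = 5.28e-30), by 1.68 at 12 h and by 1.29 at 24 h. With 0.8 µg the log2 fold changes were 0.99, 0.65 and 0.65, under the fold threshold, with adjusted p values of 0.000376, 0.0254 and 0.0374. The 4 h value passed the threshold without control replicate 1 or 3 (log2 1.05 in both cases) or 0.8 µg replicate 3 (log2 1.16).

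Xbp1 (ENSMUSG00000020484, chr11:5520659-5525893, plus strand) encodes the transcription factor that becomes active once IRE1 has cut its mRNA. It was counted at 56.7, 56.8 and 62.8 in the control, 60.6, 100.1 and 79.9 with 0.8 µg at 4 h and 120.4, 141 and 134 with 80 µg at 4 h. At 12 h its normalised counts were 116, 146 and 117 with 0.8 µg and 147, 105 and 194 with 80 µg, and at 24 h 53.5, 28.9 and 43.4 with 0.8 µg and 50.4, 50.04 and 97.4 with 80 µg. Every 12 h library was above the control libraries, whereas at 24 h with 80 µg the groups overlapped. Xbp1 rose 2.24-fold with 80 µg at 4 h (adjusted p = 0.000122), 2.15-fold with 0.8 µg at 12 h and 2.53-fold with 80 µg at 12 h. Without replicate 2 of the 0.8 µg 12 h group its log2 value there was 0.97, just under the fold threshold. With 0.8 µg at 4 h its fold of 1.36 was not called (adjusted p = 0.197).

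Ern1 (ENSMUSG00000020715, chr11:106394650-106487852, minus strand), which encodes IRE1α, the sensor and RNase that splices Xbp1, was counted low throughout. Its normalised counts were 11.3, 24.3 and 27.1 in the control, 11.1, 14.5 and 7.55 with 0.8 µg and 19.7, 23.2 and 22.3 with 80 µg at 4 h. At 12 h the counts read 11.8, 9.03 and 4.7 with 0.8 µg and 10.05, 6.6 and 7.78 with 80 µg, and at 24 h 0.973, 1.86 and 6.19 with 0.8 µg and 8.77, 8.83 and 1.23 with 80 µg. At 24 h all 6 immunised libraries lay below the control libraries. Ern1 fell by 2.46 on the log2 scale with 0.8 µg at 24 h (SE 0.62, adjusted p = 0.000623) and fell by 1.63 with 80 µg (SE 0.57, adjusted p = 0.0145). The call with 80 µg was lost without control replicate 2 (adjusted p = 0.0645), control replicate 3 (0.0749) or 80 µg replicate 3 (0.116).

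Of the 7 Hsp70 and Hsp90 chaperones and cofactors, 5 were higher with 0.8 µg at 4 h and 6 with 80 µg at 4 h, 5 at 12 h with either dose, and 2 and 4 at 24 h, and in each comparison 1 was lower. All genes gave 11.5% to 18.4% higher and 5.84% to 25.1% lower in these comparisons. Hspa5 (ENSMUSG00000026864, chr2:34771970-34777547, plus strand) encodes BiP, the ER Hsp70 that binds unfolded chains and holds the sensors inactive. Its normalised counts were 829.8, 871 and 718 in the control, 7689, 7900.0 and 7569.8 with 0.8 µg at 4 h and 8609, 8734 and 8274 with 80 µg at 4 h. By 12 h the values stood at 4816, 4855 and 5089 with 0.8 µg and 5179.8, 5649 and 5847 with 80 µg, and at 24 h 2297, 2505 and 1726 with 0.8 µg and 2288, 1429.9 and 2023 with 80 µg. The groups of the 3 times did not overlap, falling from 4 h to 24 h at both doses, and each stayed above the control. Hspa5 was 9.57-fold and 10.6-fold higher than control at 4 h (adjusted p = 7.31e-138 and 1.28e-150), 6.1-fold and 6.89-fold at 12 h, and 2.7-fold and 2.37-fold at 24 h.

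Sdf2l1 (ENSMUSG00000022769, chr16:17130138-17132383, minus strand), a stress-inducible partner of the J protein Dnajb11, took another course. It had 7.22, 7.1 and 21.4 normalised counts in the control, 47.4, 36.9 and 50.7 with 0.8 µg and 37, 53.3 and 49.7 with 80 µg at 4 h. At 12 h the values were 109.8, 91.8 and 141 with 0.8 µg and 189, 156 and 191 with 80 µg, and at 24 h 124, 135 and 96 with 0.8 µg and 160.0, 145 and 160.2 with 80 µg. Every 12 h and 24 h library was above every 4 h library. Its log2 fold change of 3.87 with 80 µg at 12 h (SE 0.32, adjusted p = 7.06e-32) was the largest of any member against control, and at 24 h it was 3.29 and 3.67.

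The 3 J proteins of the list differed. Dnajb9 (ENSMUSG00000014905, chr12:44205559-44210326, minus strand) encodes ERdj4, which brings BiP to IRE1 and represses it. Its normalised counts were 27.8, 31.4 and 47.1 in the control, 36.3, 64.5 and 48.6 with 0.8 µg and 99.5, 73.6 and 90.9 with 80 µg at 4 h. The 12 h libraries held 6.86, 8.27 and 5.87 with 0.8 µg and 11, 9.54 and 5.83 with 80 µg, and those at 24 h 10.7, 16.8 and 20.6 with 0.8 µg and 4.38, 12.5 and 11.7 with 80 µg. The 80 µg libraries at 4 h were all above the control, and all 12 libraries at 12 h and 24 h were below it. Dnajb9 was 2.48-fold higher with 80 µg at 4 h (adjusted p = 0.000471), then 5.06-fold and 4.04-fold lower at 12 h (adjusted p = 2.15e-06 and 1.47e-05) and 2.21-fold and 3.72-fold lower at 24 h. Its call with 0.8 µg at 24 h was lost without control replicate 3 (adjusted p = 0.114) or 0.8 µg replicate 1 (0.107). Dnajc3, which encodes p58IPK, a BiP cofactor and inhibitor of PERK, fell from 617 ± 58.1 normalised counts in the control (SD, n = 3) to 217 ± 29 and 163 ± 7.94 at 4 h, 2.85-fold and 3.78-fold lower. At 24 h Dnajc3 stood at 681 ± 108 and 864 ± 57.7 and was not called against control. Dnajb11, or ERdj3, which delivers substrates to BiP, was higher at every group except 0.8 µg at 24 h, by 2.3-fold to 3.34-fold where called.

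Hyou1, the nucleotide exchange factor that resets BiP, rose from 35.4 ± 6.48 normalised counts in the control to 177 ± 23.3 and 171 ± 2.53 at 4 h with 0.8 and 80 µg. At 12 h it was 3.86-fold and 3.76-fold above control, and at 24 h its folds of 1.14 and 1.31 were not called. Hsp90b1, the ER Hsp90 that folds integrins and Toll-like receptors, was higher by 2.45-fold and 2.32-fold at 4 h and by 2.78-fold and 3.55-fold at 12 h. It was still called with 80 µg at 24 h, at 2.05-fold, but not without control replicate 1 (log2 0.997) or 80 µg replicate 1 (log2 0.998).

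**Figure D3:**
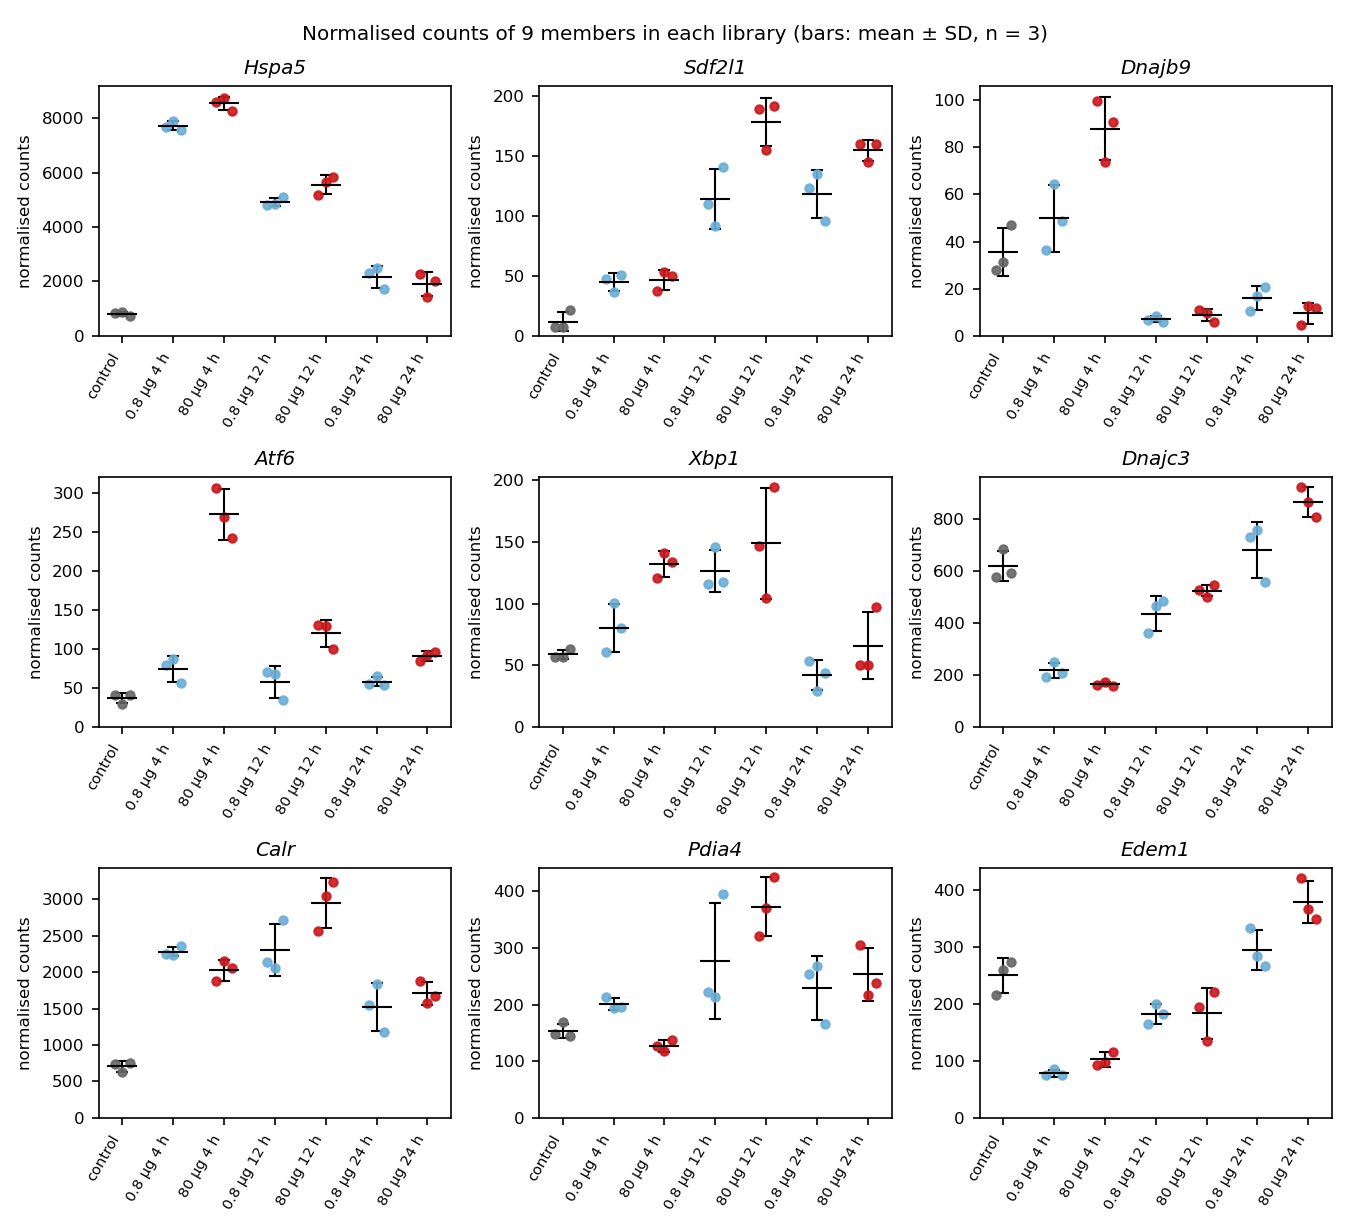
Normalised counts (linear axis from 0) of 9 members in each of the 21 libraries, with points for libraries and bars for mean ± SD (n = 3). Hspa5 peaks at 4 h, Sdf2l1 is highest with 80 µg at 12 h, Dnajc3 and Edem1 are lowest at 4 h, and Atf6 separates the doses at each time.

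Both lectin chaperones, which hold glycoproteins during folding, were higher in all 6 comparisons. Canx (ENSMUSG00000020368, chr11:50293961-50325673, minus strand), the membrane-bound calnexin, had 501, 428 and 434 normalised counts in the control, 2249, 2092 and 2170.0 with 0.8 µg and 1799, 1984 and 1924 with 80 µg at 4 h. Its 12 h libraries had 1746, 1647 and 2066 with 0.8 µg and 1809.7, 2015 and 2058 with 80 µg, and those at 24 h 1061, 1222 and 909 with 0.8 µg and 1041, 869 and 1029 with 80 µg. No immunised library overlapped the control, and the rise was 4.78-fold and 4.19-fold at 4 h (adjusted p = 5.23e-88 and 4.96e-74) and 2.34-fold and 2.16-fold at 24 h. Calr (ENSMUSG00000003814, chr8:84841850-84846934, minus strand), its soluble counterpart calreticulin, had 740.1, 624 and 751 in the control, 2252, 2237 and 2352 with 0.8 µg and 1874, 2159 and 2053 with 80 µg at 4 h. At 12 h Calr was at 2141, 2062 and 2711 with 0.8 µg and 2569.8, 3039.6 and 3243 with 80 µg, and at 24 h at 1551, 1832 and 1174 with 0.8 µg and 1877, 1580.0 and 1666 with 80 µg. Its highest group mean was that with 80 µg at 12 h, whose libraries overlapped those with 0.8 µg at 12 h, 4.19-fold above control (adjusted p = 5.99e-53). Its call with 0.8 µg at 24 h (log2 1.10) fell under the fold threshold without 0.8 µg replicate 2 (log2 0.95).

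The 4 protein disulfide isomerases, which form and rearrange disulfide bonds, fell into 2 courses. Pdia6 (ENSMUSG00000020571, chr12:17266545-17284770, plus strand), which also quenches IRE1, was high from 4 h on. It had 181, 105 and 173 normalised counts in the control, 560.2, 715 and 677 with 0.8 µg and 645, 638 and 674 with 80 µg at 4 h. After 12 h the counts were 655, 649.9 and 513 with 0.8 µg and 732, 564 and 861 with 80 µg, and at 24 h 449, 395 and 294 with 0.8 µg and 456, 358 and 495 with 80 µg. Pdia6 was 4.25-fold and 4.26-fold above control at 4 h, 3.96-fold and 4.69-fold at 12 h and 2.48-fold and 2.85-fold at 24 h, with no overlap. P4hb, the classical disulfide isomerase, was likewise higher at 4 h, by 2.6-fold and 2.82-fold. It was called at 12 h and, with 80 µg, at 24 h (2.01-fold), the latter lost without control replicate 1 or 2 or 80 µg replicate 3 (log2 0.997, 0.99 and 0.94).

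Pdia3 and Pdia4 were not called at 4 h. Pdia4 (ENSMUSG00000025823, chr6:47796141-47813430, minus strand), or ERp72, had 148, 168 and 144 normalised counts in the control, 214, 194 and 195 with 0.8 µg and 127, 117 and 138 with 80 µg at 4 h. The 12 h values were 223, 214 and 396 with 0.8 µg and 322, 369.8 and 426 with 80 µg, and at 24 h 254, 269 and 165 with 0.8 µg and 306, 216 and 237 with 80 µg. At 4 h the 80 µg libraries were the lowest of the series, below the control, and at 12 h they were 2.42-fold above it (adjusted p = 1.21e-08). Pdia3, the partner of calnexin and calreticulin, went from 637 ± 94.1 in the control (SD, n = 3) to 882 ± 67.8 and 699 ± 22.7 at 4 h, then rose to 1338 ± 317 and 1923 ± 268 at 12 h and 1579 ± 285 and 1778 ± 66.5 at 24 h, and was called at both later times with both doses. With 0.8 µg at 12 h its log2 value of 1.06 fell under the threshold without control replicate 3 (0.94) or 0.8 µg replicate 3 (0.85).

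Manf and Creld2 encode small lumenal proteins that are induced and released under ER stress. Manf (ENSMUSG00000032575, chr9:106838312-106891979, minus strand) had 119.6, 115 and 176 normalised counts in the control, 224, 269 and 256 with 0.8 µg and 361, 349 and 353 with 80 µg at 4 h. At 12 h they were 427, 432 and 389 with 0.8 µg and 593, 442 and 703 with 80 µg, and at 24 h 278, 222 and 200.3 with 0.8 µg and 321, 280.4 and 406 with 80 µg. All immunised libraries were above the control, and the difference reached 4.24-fold with 80 µg at 12 h (adjusted p = 6.07e-29). An exon of Manf overlaps exons of Dcaf1 on the opposite strand and of Rbm15b on the same strand, both of which had counts of their own, so reads in the shared part are uncertain. Creld2 was called at 12 h only, at 3.62-fold and 3.78-fold.

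Of the 7 genes of ER-associated degradation, 0 were called higher in any comparison with control by DESeq2, edgeR or limma. Of the 36 values behind that count, 2 were higher at an unadjusted p under 0.05, and both also passed the adjusted p alone: Derl1 with 80 µg at 12 h (log2 0.50, adjusted p = 0.0288) and Edem1 with 80 µg at 24 h (log2 0.60, adjusted p = 0.00146). Edem1 (ENSMUSG00000030104, chr6:108828641-108859356, plus strand), which helps to mark misfolded glycoproteins by mannose trimming, was lower at 4 h. It had 216, 261 and 274 normalised counts in the control, 74.7, 85.6 and 75.5 with 0.8 µg and 92.6, 98.8 and 117 with 80 µg at 4 h. At 12 h the counts read 166, 200.1 and 183 with 0.8 µg and 195, 134 and 222 with 80 µg, and at 24 h 334, 284 and 267 with 0.8 µg and 422, 367 and 349 with 80 µg. With 80 µg at 24 h all 3 libraries lay above the control. All 6 libraries at 4 h lay below every other library, a fall of 3.18-fold and 2.44-fold against control (adjusted p = 1.62e-17 and 1.19e-11).

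The others of this group were not called in either direction. For Herpud1, a scaffold of the degradation complex, the shrunken log2 fold changes against control lay between -0.60 and 0.04. For Syvn1, the ubiquitin ligase HRD1, they lay between -0.63 and 0.34, and for its adaptor Sel1l between -0.54 and -0.22. Derl1 and Derl2, derlins of the exit channel, ranged from -0.34 to 0.50. Derl3, a derlin known from secretory cells, was not tested, with 0 counts in the control and 0.8 µg 4 h libraries and at most 5 in any library. Exons of Syvn1 and Derl2 overlap those of Mrpl49 and Mis12 on the opposite strand.

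**Figure D4:**
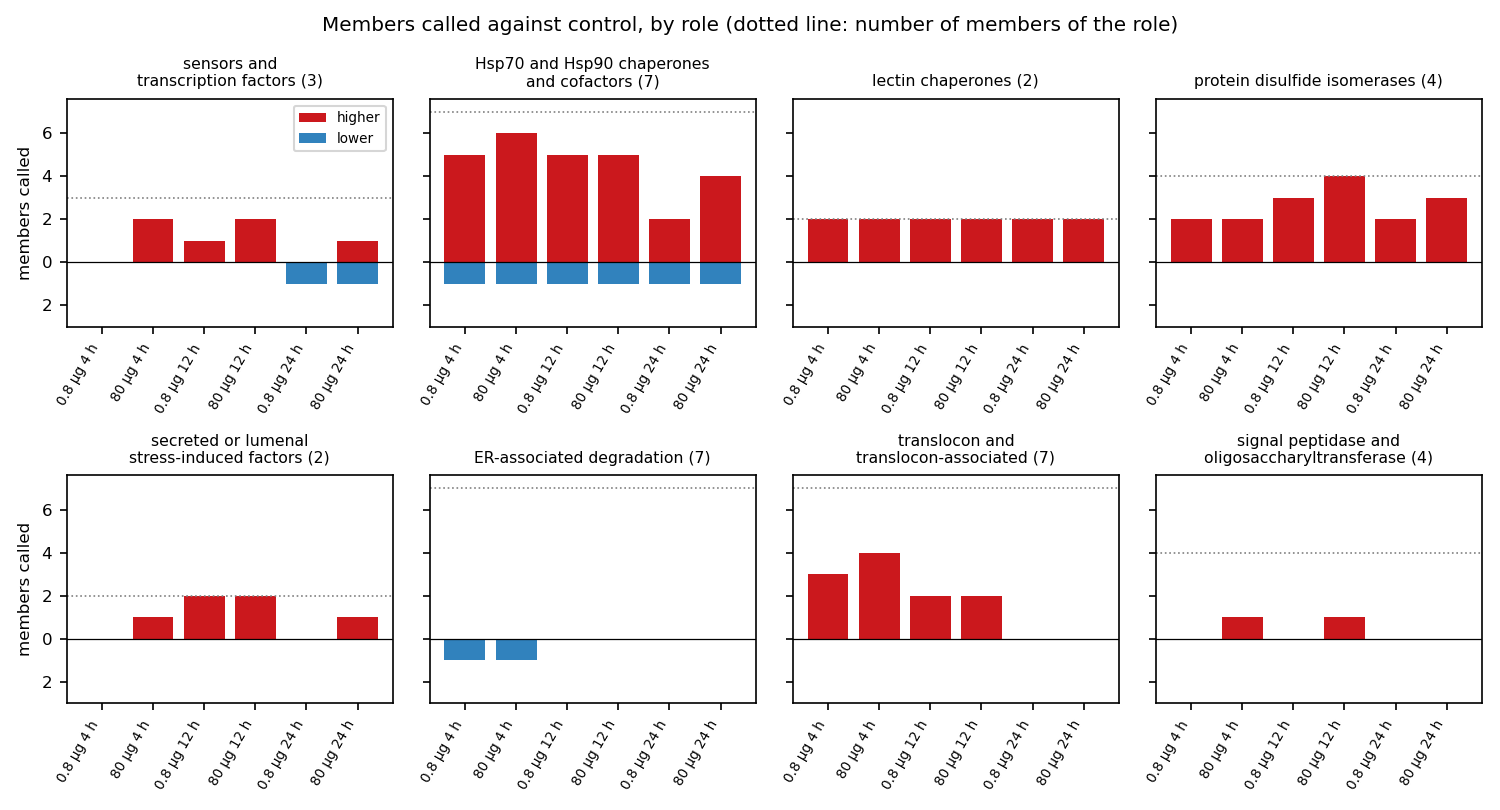
Number of members called higher (red, upwards) or lower (blue, downwards) against control in each immunised group, by role, with the size of each role as a dotted line. Both lectin chaperones are higher throughout, and ER-associated degradation has lower calls at 4 h and no higher call.

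Of 7 genes of the Sec61 translocon and the translocon-associated protein complex, through which nascent chains enter the ER, 3 and 4 were higher at 4 h with 0.8 and 80 µg, 2 at 12 h with each dose and 0 at 24 h by DESeq2, edgeR or limma, where 11 of 14 values were higher at an unadjusted p under 0.05 and 10 by the adjusted p alone. The shares of all genes called higher were 17.3% and 18.4% at 4 h, 17.2% and 17.8% at 12 h and 11.5% and 12.3% at 24 h. Ssr1 (ENSMUSG00000021427, chr13:37966605-37994217, minus strand), a subunit of the translocon-associated complex, had 292, 347 and 206 normalised counts in the control, 829.7, 815 and 824 with 0.8 µg and 721, 779.6 and 738 with 80 µg at 4 h. By 12 h the values stood at 469, 457 and 473 with 0.8 µg and 522, 529.7 and 491 with 80 µg, and at 24 h 382, 366 and 358 with 0.8 µg and 316, 359 and 340.2 with 80 µg. The 4 h libraries were the highest, 2.93-fold and 2.65-fold above control (adjusted p = 2.06e-37 and 3.8e-31). Sec61a1, the channel subunit, was also higher at 4 h, by 2.58-fold and 2.19-fold. Ssr4 was called at 4 h with both doses (2.08-fold and 2.05-fold), but not without control replicate 1 (log2 0.99 and 0.96) and, with 0.8 µg, not without 0.8 µg replicate 1 (log2 0.99). It was also called with 80 µg at 12 h (2.2-fold), and this call was lost in no fit without 1 library. Ssr2 was 2.44-fold higher with 80 µg at 4 h and 2.52-fold and 2.5-fold at 12 h. Its other values were decided by 1 library: without control replicate 3 it passed the threshold with 0.8 µg at 4 h (log2 1.30) and at 24 h with 0.8 and 80 µg (log2 1.28 and 1.36). It did so too without 0.8 µg replicate 3 at 4 h or 24 h (log2 1.07 and 1.03) and without 80 µg replicate 1 at 24 h (log2 1.00). Ssr3 was not called, with log2 fold changes from 0.09 to 0.85. Sec61g, at 4.85 ± 2.14 normalised counts in the control, was called with 0.8 µg at 12 h (13.9 ± 5.34, adjusted p = 0.0383). That call was lost without control replicate 2 or 3 (adjusted p = 0.145 and 0.0852) and without 0.8 µg replicate 1 or 2 (0.0757 and 0.161). The small subunit Sec61b (ENSMUSG00000053317, chr4:47474658-47483242, plus strand) was not called, with 107, 119.7 and 163 normalised counts in the control, 91.9, 133 and 100.4 with 0.8 µg and 155, 115 and 115 with 80 µg at 4 h. Its values were 190.2, 238 and 143 with 0.8 µg and 212, 141 and 161 with 80 µg at 12 h and 183, 139 and 198 with 0.8 µg and 295, 219 and 232 with 80 µg at 24 h, where the 80 µg libraries were above the control (log2 0.93, adjusted p = 0.000142). Without control replicate 3 or 80 µg replicate 2 that value passed the threshold (log2 1.11 and 1.01).

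Signal peptidase (Spcs1, Spcs2, Spcs3), which removes signal peptides, had 0 calls among its 3 listed genes by DESeq2, edgeR or limma, with 6 of 18 values at an unadjusted p under 0.05 and 5 at an adjusted p under 0.05. The log2 fold changes of Spcs1 lay between 0.22 and 0.58, and those of Spcs2 between -0.05 and 0.21. Spcs3 (ENSMUSG00000054408, chr8:54520433-54529998, minus strand) had 104, 85.2 and 133 normalised counts in the control, 124, 148 and 127 with 0.8 µg and 132, 131 and 144 with 80 µg at 4 h. The 12 h libraries held 119.6, 169 and 155 with 0.8 µg and 153, 90.2 and 162 with 80 µg, and those at 24 h 128, 106 and 106 with 0.8 µg and 151, 135 and 187 with 80 µg. With 80 µg at 24 h its log2 fold change of 0.56 passed the adjusted p alone (0.0288). Ddost (ENSMUSG00000028757, chr4:138304730-138312628, plus strand), a subunit of the oligosaccharyltransferase that attaches N-glycans, had 122, 100.4 and 123 in the control, 197, 217 and 178 with 0.8 µg and 226, 257 and 220.3 with 80 µg at 4 h. At 12 h it was at 216, 217 and 214 with 0.8 µg and 293, 271 and 259 with 80 µg, and at 24 h at 168, 205 and 152 with 0.8 µg and 189.6, 144 and 196 with 80 µg. Ddost was called with 80 µg at 4 h (2.04-fold) and 12 h (2.39-fold), the former lost without control replicate 2 (log2 0.93) or 80 µg replicate 2 (log2 0.96).

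The comparison of 80 µg with 0.8 µg asked whether antigen dose changed these genes in cells of the same Timer stage. Atf6 was the 1 member called higher at 4 h and again at 12 h, and 0 were lower by DESeq2, edgeR or limma. At an unadjusted p under 0.05, 5 were higher and 5 lower at 4 h, and 12 higher and 0 lower at 12 h. At 4 h 3.12% of all genes were higher and 2.74% lower with 80 µg, and at 12 h 1.83% and 0.96%. Atf6 was 3.67-fold higher with 80 µg at 4 h (log2 1.86, SE 0.22, adjusted p = 8.62e-15) and 2.09-fold higher at 12 h (log2 1.03, SE 0.23, adjusted p = 0.000389). The 12 h value fell under the fold threshold without 0.8 µg replicate 3 (log2 0.79, adjusted p = 0.0114) or without 80 µg replicate 1 or 2 (0.96 and 0.97). With library totals as size factors, or in a fit of only the samples compared, 0 members were called at 12 h, so Atf6 was not. At 24 h 0 of the 33 members tested were called by DESeq2, and 0 by edgeR or limma, in either direction, where 0.89% of all genes were higher and 0.673% lower. At an unadjusted p under 0.05, 12 members were higher and 0 lower with 80 µg, the same counts as at 12 h. No share of all genes at an unadjusted p is given to set these counts against. The log2 difference of Atf6 at 24 h was 0.64 (95% interval of the unshrunken value 0.18 to 1.11).

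By the adjusted p alone, 2 members were higher (Atf6 and Manf) and 1 lower (Pdia4) with 80 µg at 4 h, against 5.81% and 6.19% of all genes. At 12 h 5 were higher (Atf6, Dnajb11, Sdf2l1, Pdia3 and Ssr4) and 0 lower, against 3.67% and 2.6%, and at 24 h 0 were either by DESeq2 or limma and 1 was higher by edgeR, against 3.73% and 2.2%. Leaving out 1 library gave 1 to 2 members past the adjusted p at 4 h and 2 to 7 at 12 h. For 4 h limma gave 1 and a fit of only the samples compared 8. Pdia4 fell by 0.65 on the log2 scale at 4 h (adjusted p = 0.0276), with all 3 libraries of the 80 µg group under those of the 0.8 µg group. By limma 0 members were lower there, so Pdia4 did not pass. Sdf2l1 was 1.57-fold higher with 80 µg at 12 h (adjusted p = 0.0416), again with no overlap. Of the alternatives, edgeR, the replicate block and a fit of only the samples compared gave 3 members at 12 h in place of 5, and limma 2. Hspa5 differed by 0.14, 0.18 and -0.19 at 4, 12 and 24 h, with 95% intervals of the unshrunken values of -0.10 to 0.39, -0.07 to 0.42 and -0.44 to 0.06. The interval lay within 1 log2 unit of 0 in either direction for 27 of the 35 members at 4 h, 30 at 12 h and 30 at 24 h. The values of Dnajb9, for which the 4 h difference was 0.81 (interval 0.15 to 1.51), and of Ern1 had wider intervals.

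**Figure D5:**
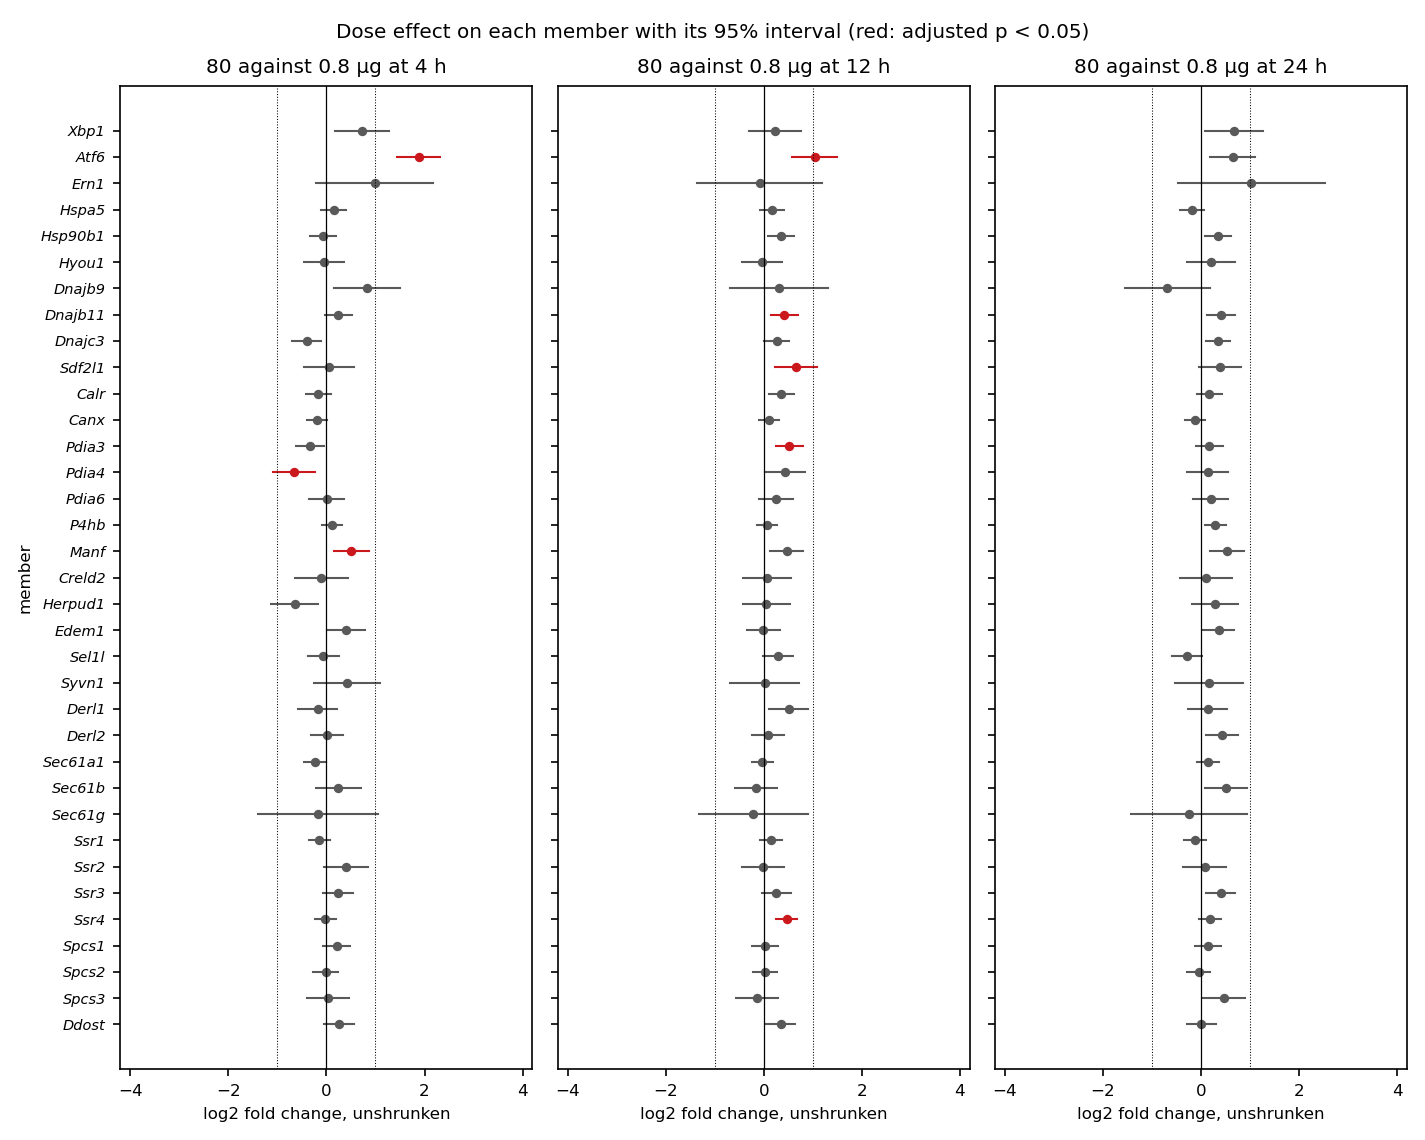
Unshrunken log2 fold change of 80 µg against 0.8 µg (points) with 95% intervals (lines) for 35 members at 4, 12 and 24 h, of which Ern1 and Sec61g were drawn but had no adjusted p at 24 h, red where the adjusted p was under 0.05 and dotted lines at 1 and -1. Atf6 lies at 1.88 at 4 h, and most intervals stay between the dotted lines.

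Whether the effect of dose differed between the 3 times was tested directly by a likelihood ratio test on the 18 immunised libraries. It did for 5 members, Atf6, Dnajc3, Pdia3, Pdia4 and Ssr4, where it did for 10.4% of all genes. For Atf6 the log2 dose effect was 1.86, 1.03 and 0.64 at 4, 12 and 24 h (DESeq2 adjusted p = 0.00834). For Dnajc3 it was -0.40, 0.27 and 0.34 (adjusted p = 0.00629). The dose effects on Pdia3 and Pdia4 were -0.33 and -0.65 at 4 h and 0.52 and 0.43 at 12 h (adjusted p = 0.00275 and 0.0203), and those on Ssr4 -0.03 and 0.47 (adjusted p = 0.0441). Dnajc3, Pdia3 and Pdia4 thus had lower means with 80 µg than with 0.8 µg at 4 h and higher ones at 12 h. Within a single time, only Pdia4 at 4 h and Pdia3 at 12 h of these passed the adjusted p. The 12 h libraries of Pdia3 and of Pdia4 overlapped between doses. These calls rest on single libraries to different degrees. Over the 18 fits that each left out 1 library, the adjusted p of Pdia3 stayed under 0.05 in all 18, of Dnajc3 in 17, of Atf6 in 16, of Pdia4 in 12 and of Ssr4 in 5, and limma on the deposited log2 values called 0 of the 5.

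Steps in time within a dose were also steps of the sorting gate. From 4 h to 12 h with 0.8 µg, 3 members rose (Dnajc3, Sdf2l1 and Edem1) and 1 fell (Dnajb9), against 12.6% and 7.98% of all genes. With 80 µg over the same step 5 rose (Dnajc3, Sdf2l1, Pdia3, Pdia4 and Creld2) and 3 fell (Atf6, Ern1 and Dnajb9), against 15.7% and 9.1%. Dnajb9 was 7.11-fold lower with 0.8 µg and fell by 3.19 on the log2 scale with 80 µg (adjusted p = 2.29e-14), while Dnajc3 rose 2.01-fold and 3.2-fold. The call of Dnajc3 with 0.8 µg stood at the fold threshold (log2 1.00) and 4 of the 6 fits without 1 library put it below, down to 0.92 without 0.8 µg 4 h replicate 1. Creld2 with 80 µg lost its call in 1 such fit. The fall of Ern1 with 80 µg (adjusted p = 0.0462) was lost in each of the 6 fits without 1 library, with adjusted p from 0.0602 without 80 µg 12 h replicate 1 to 0.136 without 80 µg 12 h replicate 2.

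From 12 h to 24 h with 0.8 µg, 1 member rose (Dnajb9) and 4 fell (Xbp1, Hspa5, Hyou1 and Creld2), against 17.1% and 9.48% of all genes. With 80 µg 1 rose (Edem1) and 3 fell (Xbp1, Hspa5 and Hyou1), against 16.7% and 10.5%. Xbp1 fell 3.01-fold and 2.26-fold, Hspa5 2.26-fold and 2.9-fold, and Hyou1 3.38-fold and 2.87-fold. The rise of Dnajb9 with 0.8 µg (adjusted p = 0.0356) was lost in 5 of the 6 fits without 1 library, the highest adjusted p of 0.146 being without 0.8 µg 24 h replicate 3. Other calls of this step were also lost without 1 library. Creld2 with 0.8 µg was lost in 4 of the 6 fits, Xbp1 with 80 µg in 3 and Edem1 with 80 µg in 2. Xbp1 reached log2 -0.89 without 12 h replicate 3 and Creld2 -0.82 without 24 h replicate 3. Edem1 reached 0.86 without 12 h replicate 2. The group with the highest mean was 80 µg at 12 h for 13 of the 36 members (36.1%), against 9.73% of all genes, and the control for 1 member, Sel1l (2.78%), against 25% of all genes. This ranks group means without a test. For some of the 13, such as Xbp1 and Calr, the libraries overlapped those with 0.8 µg at 12 h.

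Other genes of the pathway were taken from 5 lists of 68 genes in all. Of the 65 tested at 4 h, 20% were higher and 13.8% lower with 0.8 µg, where all genes gave 17.3% and 23.4%, and 24.6% were higher and 15.4% lower with 80 µg, where all genes gave 18.4% and 25.1%. At 12 h 15.4% were higher and 12.3% lower with 0.8 µg, where all genes gave 17.2% and 20.5%. With 80 µg at 12 h 16.9% were higher and 9.23% lower, where all genes gave 17.8% and 20.1%. At 24 h 3.12% and 4.69% of the 64 tested were higher with 0.8 and 80 µg, below the 11.5% and 12.3% of all genes, and single lists at 4 h with 80 µg ran from 13% to 37.5% higher. In the PERK and integrated stress arm, 8 of 10 genes were tested against control. There, 1 was higher and 2 lower with 0.8 µg at 4 h, 3 and 3 with 80 µg at 4 h, 1 and 4 at 12 h with each dose (all genes 17.2% and 20.5% with 0.8 µg, 17.8% and 20.1% with 80 µg), while 1 was lower with 80 µg at 24 h. Atf4, the transcription factor of this arm, rose from 412 ± 28.7 normalised counts in the control (SD, n = 3) to 1801 ± 251 and 1893 ± 52.1 at 4 h and 1085 ± 147 and 1194 ± 230.5 at 12 h. Eif2ak3, which encodes PERK, fell by 1.36 and fell by 2.52 on the log2 scale at 4 h (adjusted p = 0.0067 and 1.29e-06). It was counted low, at 48.3 ± 15.5 normalised counts in the control and 17.9 ± 7.28 and 7.27 ± 6.9 at 4 h with 0.8 and 80 µg. Ppp1r15a, or GADD34, which reverses the translational block, rose by 1.27 with 80 µg at 4 h and fell by 1.74 at 12 h.

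Of 6 genes that process ATF6 and XBP1 or resemble them, 2 were higher and 1 lower with 80 µg at 4 h, and 1 and 2 with 0.8 µg, which is 33.3% and 16.7% with 80 µg and 16.7% and 33.3% with 0.8 µg, where all genes gave 18.4% and 25.1% and 17.3% and 23.4%. Atf6b, the homologue of Atf6, rose by 1.55 and 1.79 on the log2 scale at 4 h, and Rtcb, the ligase that joins the Xbp1 exons, by 1.24 with 80 µg. Creb3, a related membrane-bound transcription factor, fell by 1.76 and fell by 1.71 at 4 h. Of 15 other oxidoreductases and folding factors, 3 and 4 were higher at 4 h with 0.8 and 80 µg and 1 was lower with each dose, or 21.4% and 28.6% higher and 7.14% lower of the 14 tested. Among them Ero1l, which reoxidises disulfide isomerases, rose by 1.90 and 2.38 at 4 h, and Dnajc10, a disulfide reductase, fell by 1.17 and fell by 1.67.

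Of 14 other genes of ER-associated degradation, 2 and 4 were higher and 2 and 3 lower at 4 h with 0.8 and 80 µg, which is 14.3% and 28.6% higher and 14.3% and 21.4% lower against the shares of all genes given above. The extraction ATPase gene Vcp rose by 1.16 to 1.71 at 4 h and 12 h, and Edem2, a relative of Edem1, fell by 1.39 and fell by 1.32 at 4 h. Of 23 other targeting, translocation and glycosylation genes, 6 and 3 were higher and 2 were lower with each dose at 4 h, or 26.1% and 13% higher and 8.7% lower. Rpn1, an oligosaccharyltransferase subunit, rose by 1.75 and 1.62, while Tram1, which assists the translocon, fell by 2.01 and fell by 2.17 and Sec11c, a catalytic subunit of signal peptidase, fell by 2.18 and fell by 2.95. At 24 h Sec11c was above control instead, called with 0.8 µg (log2 1.01) and under the fold threshold with 80 µg (log2 0.66).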

How the data were processed

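The deposited count table gives raw read counts per Ensembl gene, which the authors made from QuantSeq Forward 3′ libraries with STAR 2.5.2a on mm10 (GRCm38) and HTSeq, per the submitters' processing notes and the study's methods. How strand was handled in counting, and whether molecular identifiers were used, is not given in the sources used here. The deposited log2 table holds regularised log values that the authors computed with DESeq2, and a recomputed version differed from it by a median of 0.0796 (Pearson's r 0.9988 over 15249 genes).

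Genes with fewer than 10 reads over all 21 samples were removed, leaving 15300. DESeq2 1.42.0 in R 4.3.3 was fitted once to all 21 samples by group, with normal shrinkage. P-values were adjusted by Benjamini-Hochberg over all genes tested, with no adjustment over the members alone. A gene was called at an adjusted p under 0.05 and an absolute log2 fold change over 1. A likelihood ratio test of the dose by time term used the 18 immunised samples. Normalised counts are counts divided by DESeq2 size factors. Intervals are 95% confidence intervals of the unshrunken log2 fold change between groups, and not the spread of single samples. Alternatives were edgeR 4.0.16, limma 3.58.1 on the deposited log2 values, other filters, scalings and thresholds, a replicate block and leaving out each library. The scripts were tested on simulated data.

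The members and the other lists were chosen with earlier results of these data known. Values in every sample are given for Xbp1, Atf6, Ern1 and Hspa5. In each role they are also given for the members with the largest changes against control and between doses. Derl3, with the largest change between doses in its role, is the exception, since it was not tested. Others are given by mean, fold or range. Genes of the other lists were named from the 3 with the largest change against control in each list, taken where the mean normalised count reached 20. Replicates of each group were separate mice, and every pair of the same group differed by more than sampling noise (chi-square over degrees of freedom 3.28 to 13.4 in 21 pairs). The highest values, 13.4 and 13.2, were those of 0.8 µg 12 h replicate 3 with replicates 1 and 2 of its group. Replicates 1 and 2 gave 3.28 with each other, so replicate 3 stood apart, and it enters every comparison with that group. The most counted gene held 25.7% of the counts in replicate 3, against 17% and 18.2% in replicates 1 and 2, and the part of this was not tested. Gene positions come from GENCODE on GRCm38. An exon of another gene overlapped 12 of the 36 members, for 11 in the opposite orientation and for 3 in the same.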

Additional observations from a re-analysis of the deposited data

Results flagged for a closer look

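For 5 members the effect of dose differed between 4, 12 and 24 h in the likelihood ratio test of DESeq2 with Benjamini-Hochberg adjustment, out of 35 tested, where the share of all genes was 10.4%. Limma called 0 members, while edgeR, the stricter filter on low counts and the replicate block called 4 each. The adjusted p was 0.00834 for Atf6, the ATF6 sensor, where 80 µg gave the higher value at each time and the difference was greatest at 4 h. It was 0.00275 for Pdia3, 0.0203 for Pdia4 and 0.00629 for Dnajc3, for which 80 µg gave lower means than 0.8 µg at 4 h and higher means at 12 h. Of these differences, only those of Pdia4 at 4 h and Pdia3 at 12 h passed the adjusted p between doses. It was 0.0441 for Ssr4, a translocon-associated subunit with nearly equal values at 4 h and a higher one with 80 µg at 12 h, but this held in 5 of 18 fits without 1 library and was lost with edgeR, limma, the stricter filter and the replicate block (adjusted p up to 0.251 over the alternatives). The sorting gate changed with time, so a difference between times cannot be told apart from a difference between gates.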

How the results depend on the processing

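No called value of a member changed direction under any of the alternatives run. The 113 called values were all kept by edgeR, with no filter on low counts, with at least 10 counts in at least 3 samples and without shrinkage. Library totals as size factors kept 98, limma on the deposited log2 values 103, a fit of only the samples compared 106 and the replicate block 112, and the cause of each loss was not tested. In the fits without 1 library, each count of calls against control stayed within 1.5 times of its value. Beside those given above, single values passed the threshold only in 1 such fit each: Creld2 with 0.8 µg at 4 h (log2 1.02, without 0.8 µg replicate 3) and with 80 µg at 24 h (1.00, without 80 µg replicate 2), Manf with 0.8 µg at 4 h (1.07) and Sec61a1 with 0.8 µg at 12 h (1.02), both without control replicate 3, Ssr1 with 80 µg at 12 h (1.02, without control replicate 2), Dnajb11 with 0.8 µg at 24 h (1.01, without 0.8 µg replicate 3) and Ern1, lower at 12 h with 0.8 and 80 µg (-1.41 and -1.49, without control replicate 1).

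Library totals gave 8 calls with 80 µg at 24 h in place of 13, and 16 with 80 µg at 4 h in place of 20. They gave 0 between doses at 12 h, as did the samples compared alone. By the adjusted p alone between doses, limma gave 1 at 4 h and 2 at 12 h, edgeR gave 3 at 12 h and 1 at 24 h, the stricter filter 1 at 24 h, and the samples compared alone 8 at 4 h and 3 at 12 h. Limma gave 3 calls from 12 h to 24 h with 0.8 µg, and 0 members whose dose effect differed between times. With no fold threshold the calls against control were 27 with 0.8 µg at 12 h, 21 at 24 h and 26 with 80 µg at 24 h. Without it there were 3 between doses at 4 h and 5 at 12 h, 14 and 16 for the time steps with 0.8 µg and 15 and 19 with 80 µg.

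Leaving out 1 library at a time gave 1 to 2 members past the adjusted p between doses at 4 h (main value 3), with 1 without 0.8 µg replicate 3 or 80 µg replicate 1 or 2. At 12 h it gave 2 to 7, with 2 without 0.8 µg replicate 2 and 3 without 0.8 µg replicate 1 or 80 µg replicate 3, and at 24 h 0 to 2, with 2 without 0.8 µg replicate 1 or 2 or 80 µg replicate 2 and 1 without 80 µg replicate 1. Calls with the fold threshold at 12 h were 0 to 1, with 0 without 0.8 µg replicate 3 or 80 µg replicate 1 or 2. From 12 h to 24 h with 0.8 µg there were 3 to 5, with 3 without 12 h replicate 2 or 3 or 24 h replicate 2. The members whose dose effect differed between times numbered 2 to 7, with 2 without 80 µg 4 h replicate 1 and 3 without 0.8 µg 4 h replicate 1 or 3, 80 µg 4 h replicate 2 or 0.8 µg 12 h replicate 1 or 2.

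Samples with the same replicate number did not deviate together: 9 of 39 correlations were over 0.1, in no comparison were all 3, and 26 of 78 best matches were with the sample's own number. The replicate block gave 3 members past the adjusted p between doses at 12 h in place of 5. Members with few counts, such as Ern1, Sec61g and Derl3, are limited by depth.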
